A study of Rattus norvegicus with 2 samples.

Results

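The ERK feedback genes described here are 10 genes whose products restrain, or report on, the ERK branch of MAP kinase signalling: the phosphatase genes Dusp1, Dusp4, Dusp5 and Dusp6, the Sprouty and Spred genes Spry1, Spry2, Spry4 and Spred1, and the transcription factor genes Etv4 and Etv5. They were chosen by name, as probes whose accession is a RefSeq mRNA of a listed gene. Of the 10 genes, 7 had such a probe (Dusp1, Dusp5, Dusp6, Spry2, Spry4, Spred1 and Etv5), each with 1 probe and 1 spot, out of 13888 genes named in this way on the array. No probe was matched to Dusp4, Spry1 or Etv4, so these 3 were not analysed here. All 7 passed Feature Extraction's test for signal over background on the 2 arrays, so none was lost to a filter on low values.

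The cells were neural stem cells from the hippocampus of Sprague-Dawley rats of postnatal day 3, in passage 3, grown without serum in medium with basic FGF at 37 °C and 5% CO2. In the sevoflurane group they spent 6 h under 2.4% sevoflurane, an inhaled anaesthetic, and in the control group 6 h under 0% sevoflurane; the treatment text then gives 24 h in a normal incubator, while other labels name the 6 h alone. Each group had 1 array of total RNA on a 1-colour microarray, so no difference has a replicate check and no p-value can be given. Each array was scanned on a day of its own, and so the effect of the scan cannot be told apart from that of the gas. The sources used here do not say how many cultures went into an array.

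Growth factor receptors such as those for FGF and EGF activate Ras, which switches on the kinases RAF, MEK and ERK in turn. Active ERK raises the transcription of its own brakes: dual-specificity phosphatases, which remove phosphate from MAP kinases, and Sprouty and Spred proteins, which act further up, around the receptor, Ras and RAF. The ETS factors ETV4 and ETV5 are induced by FGF signalling in many tissues, and these genes together are widely used as a readout of ERK output. Neural stem cells depend on such signalling for proliferation in culture with basic FGF.

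The ERK feedback genes did not move as a block. Dusp5 and Spry4 were higher in the sevoflurane sample by at least 2-fold (1 log2 unit), by 3.77 and 2.04 log2 units. Dusp1, Dusp6, Spry2, Spred1 and Etv5 stayed within 2-fold, between -0.56 (Spry2) and 0.54 (Etv5). Thus 2 of 7 genes were at least 2-fold higher, where 28.2% of all 10028 measured genes were, and 0 of 7 were at least 2-fold lower, where 11.2% of all measured genes were. The members' median of 0.43 lay close to the median of all measured genes, 0.27. A count of 2 of 7 is near the share over all genes, so it is no result about the set as a whole. The results below describe its genes 1 by 1. All measured genes were unequal too, as the shares above show. Whether the members were more unequal than any other 7 measured genes was not tested. Differences are sevoflurane minus control, in log2 units of the processed signal after subtraction of each array's 75th percentile.

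Among the phosphatases, Dusp5 encodes a nuclear enzyme with a strong preference for ERK. Its probe gave a processed signal of 401 ± 40.2 (Feature Extraction's error estimate for the spot) in the sevoflurane sample and 56.6 ± 5.91 in the control sample. The sevoflurane signal was the higher by 7.09-fold before scaling and by 13.7-fold after scaling, a difference of 3.77 with a technical error of 0.21. That error was carried over from both spots, and it leaves out any difference between cultures. It was nearly the same for every member, from 0.20 to 0.23, so it hardly tells the genes apart in precision. Among all measured genes the Dusp5 difference lay at percentile 98.5, and among the genes of like level (1 of 10 equal groups by mean level, whose median was 0.45) at percentile 96.5.

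Dusp6 encodes a cytoplasmic phosphatase that also prefers ERK, and Dusp1 a nuclear one that acts on JNK, p38 and ERK and is induced by many stresses. Dusp6 had signals of 91.0 ± 9.40 under sevoflurane and 167 ± 16.8 in the control, which after scaling left a difference of 0.07 ± 0.21 (technical error). Dusp1 had signals of 1167 ± 117 and 2308 ± 231, which left a difference of -0.04 ± 0.20. For both genes the control spot was the brighter before scaling, by 1.84-fold for Dusp6 and by 1.98-fold for Dusp1, and scaling brought the levels to within the error of the spots. The 2 ERK-preferring phosphatase genes therefore parted: the difference of Dusp5 exceeded that of Dusp6 by 3.70 ± 0.29, a value that no constant scaling of an array can alter, and by 2.45 to 3.82 over the 6 ways of processing planned for the arrays.

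The 250 bases before the start sites of these genes, from RefSeq on GRCr8, are printed here because the promoter of Dusp5 differs in its motifs from those of Dusp1 and Dusp6. The array design refers to another build (rn4), so the coordinates belong to the promoters and not to the probes. The windows are chr1:262543524-262543773 (plus strand) for Dusp5, chr10:17184603-17184852 (plus strand) for Dusp1 and chr7:35979354-35979603 (plus strand) for Dusp6. Capitals mark matches, on either strand, to 5 motifs: the CArG box bound by serum response factor, TGACGTCA of the cyclic AMP response element, TGANTCA of AP-1 sites, CCGGAA of ETS sites and GGGCGG of GC boxes.
Dusp5: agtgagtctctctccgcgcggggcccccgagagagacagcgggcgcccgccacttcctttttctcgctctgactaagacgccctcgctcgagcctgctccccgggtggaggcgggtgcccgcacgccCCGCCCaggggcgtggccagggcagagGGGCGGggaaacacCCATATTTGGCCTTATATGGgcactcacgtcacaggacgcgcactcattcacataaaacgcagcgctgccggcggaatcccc
Dusp1: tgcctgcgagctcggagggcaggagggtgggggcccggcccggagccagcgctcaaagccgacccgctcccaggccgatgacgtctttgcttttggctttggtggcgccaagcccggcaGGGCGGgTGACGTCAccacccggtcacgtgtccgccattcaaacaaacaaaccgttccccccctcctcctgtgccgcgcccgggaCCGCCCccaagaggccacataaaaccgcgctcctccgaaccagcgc
Dusp6: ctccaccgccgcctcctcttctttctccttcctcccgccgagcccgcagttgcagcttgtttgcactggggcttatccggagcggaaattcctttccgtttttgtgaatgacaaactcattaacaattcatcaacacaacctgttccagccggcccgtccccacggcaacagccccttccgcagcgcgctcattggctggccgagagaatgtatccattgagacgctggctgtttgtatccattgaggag
The Dusp5 window held 2 CArG boxes directly side by side, at 82 to 73 and at 72 to 63 bases before the start. Over all 33469 promoter windows of the same length in the RefSeq table, 1.5% held a CArG box and 7 windows (0.0209%) held 2 or more. Dusp5 also had 2 GC boxes. At least 1 was found in 30.5% of all windows, and the share with 2 or more was not counted. The windows of Dusp5, Dusp1 and Dusp6 were 67.2%, 68.8% and 55.6% G or C, beside a median of 51.2% over all windows. The Dusp1 window held a full TGACGTCA, 124 to 117 bases before the start, as did 1.59% of windows, and 2 GC boxes, but no CArG box. In the Dusp6 window none of the 5 motifs was found. A match is a description of the letters and shows no binding, and no match says only that these letters are not in this window.

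**Figure D1:**
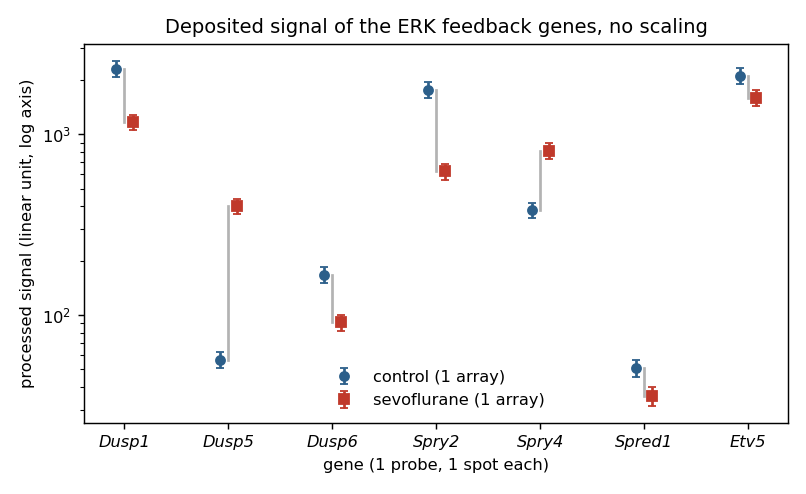
Processed signal (linear unit, log axis) of each ERK feedback gene on the control array (circles) and the sevoflurane array (squares), before any scaling. Bars are Feature Extraction's error estimate for the spot, and each gene has 1 probe and 1 spot. Only Dusp5 and Spry4 have the sevoflurane point above the control point; signals of different genes are not comparable, since probes differ in brightness.

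The Sprouty genes, whose products dampen signalling between receptor and RAF, went different ways. Spry4 had a signal of 810.2 ± 81.1 in the sevoflurane sample and 380.5 ± 38.1 in the control sample, higher by 2.13-fold before scaling and by 4.10-fold after scaling. Its difference of 2.04 ± 0.20 (technical error) was at percentile 88.7 of all measured genes and at percentile 93.5 of genes of like level, whose median was -0.04. Spry2 had a signal of 624 ± 62.4 under sevoflurane and 1767 ± 177 in the control, the control being brighter by 2.83-fold before scaling and by 1.47-fold after scaling. Its difference of -0.56 ± 0.20 was at percentile 20.9 of all measured genes and at percentile 29.9 of genes of like level. Set against each other, the difference of Spry2 minus that of Spry4 was -2.59 ± 0.29 log2 units, a 6.03-fold change in the ratio of their signals, and it lay between -2.59 and -2.36 over the 6 ways of processing.

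Spred1 is related to the Sproutys and brings neurofibromin to the membrane, where it inactivates Ras. Its spots were dim, at 35.7 ± 4.16 under sevoflurane and 51.1 ± 5.39 in the control. Its difference of 0.43 ± 0.23 was below the median of genes of like level, 1.30, at percentile 26.5 of them, while it was at percentile 56.2 of all measured genes. Dim probes were higher on the sevoflurane array in general: in the like-level group of Spred1, 58.7% of genes were at least 2-fold higher. After an intensity-dependent (loess) correction, which removes such a trend, the difference of Spred1 was -0.80.

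Promoter windows of both Sprouty genes are printed for comparison with that of Dusp5, at chr18:30702547-30702796 (minus strand) for Spry4 and chr15:89111927-89112176 (minus strand) for the upstream of 2 RefSeq start sites of Spry2, both on GRCr8 and with capitals as above.
Spry4: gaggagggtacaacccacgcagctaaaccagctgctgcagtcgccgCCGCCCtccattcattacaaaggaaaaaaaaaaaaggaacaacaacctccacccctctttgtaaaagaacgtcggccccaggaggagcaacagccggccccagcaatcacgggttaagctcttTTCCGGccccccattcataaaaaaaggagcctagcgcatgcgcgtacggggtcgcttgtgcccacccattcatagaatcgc
Spry2: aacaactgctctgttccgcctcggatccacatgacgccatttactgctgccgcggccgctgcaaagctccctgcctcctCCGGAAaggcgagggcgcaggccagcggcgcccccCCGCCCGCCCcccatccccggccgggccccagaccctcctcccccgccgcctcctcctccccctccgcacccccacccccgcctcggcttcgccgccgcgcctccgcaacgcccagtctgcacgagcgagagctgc
Spry4 held 1 ETS match, 81 to 76 bases before the start, and 1 GC box. The Spry2 window held 1 ETS match, 171 to 166 bases before the start, and 2 GC boxes that overlap each other. An ETS match was present in 12.6% of all windows. The 2 printed windows thus held the same kinds of match. Whether any of these motifs bears on the signals of the genes was not tested. The window of the other Spry2 start site had no match to any of the 5 motifs. Neither Sprouty gene had a CArG box, which Dusp5 alone had among the 8 listed genes with an entry in the promoter table (Dusp1, Dusp5, Dusp6, Spry1, Spry2, Spry4, Spred1 and Etv5). The windows of Spred1 and Etv5 held GC boxes only, 1 and 3.

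Etv5 encodes an ETS factor of the PEA3 group, a target of FGF signalling. Its signal was 1594 ± 159 in the sevoflurane sample and 2109.5 ± 211 in the control sample. The control was brighter by 1.32-fold before scaling, and the scaled difference was 0.54 ± 0.20, at percentile 59.9 of all measured genes and 83.4 of genes of like level. Etv5 and Dusp6, which are often read together as FGF targets, differed from each other by 0.47 ± 0.29 in favour of Etv5 (Dusp6 minus Etv5 was -1.15 to -0.09 over the 6 ways of processing). Both were within 2-fold while Dusp5 and Spry4 were not: Dusp5 exceeded Etv5 by 3.23 ± 0.29 (2.36 to 3.23 over the ways of processing), and Spry4 exceeded Etv5 by 1.49 ± 0.29 (1.31 to 1.52).

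The 2 arrays differed in their spread of signals: over probes, the upper quartile was 363 under sevoflurane against 692 in the control, whereas the lower quartile was 16.4 against 3.97. Dusp5 was positive in all 6 ways of processing (2.68 to 3.77) and past 2-fold in all 6, and Spry4 was positive in all 6 (0.94 to 2.15) and past 2-fold in 5, the exception being subtraction of the median over all probes. Spry2 was negative in all 6 (-1.65 to -0.43). Dusp6 ranged from -1.03 to 0.36 and was negative in 4 of 6. Spred1 ranged from -0.84 to 0.58 and was negative in 4 of 6. Dusp1 ranged from -1.13 to 0.08 and was negative in 2 of 6. Etv5 was positive in 5 of 6, between -0.55 and 0.63. For these 4 genes no direction can be given. The set's counts of 2 higher and 0 lower were also found after quantile normalization (13.6% of all genes higher and 19.6% lower), after the intensity-dependent correction (14% and 17.4%), after normexp (23.1% and 8.45%), in the deposited table (13.6% and 19.2%) and with the median over measured probes subtracted (24.3% and 14.7%). Subtraction of the median over all probes gave 1 and 3 (10.5% and 43.5%), and no scaling gave 2 and 1 (12.6% and 38.1%). In the deposited value table the difference was 3.28 for Dusp5, 0.62 for Etv5, 0.07 for Dusp1, -0.48 for Spry2, -0.53 for Dusp6 and -0.84 for Spred1. With no scaling at all, Dusp5 (2.83) and Spry4 (1.09) were past 2-fold higher, and Spry2 (-1.50) was past 2-fold lower.

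**Figure D2:**
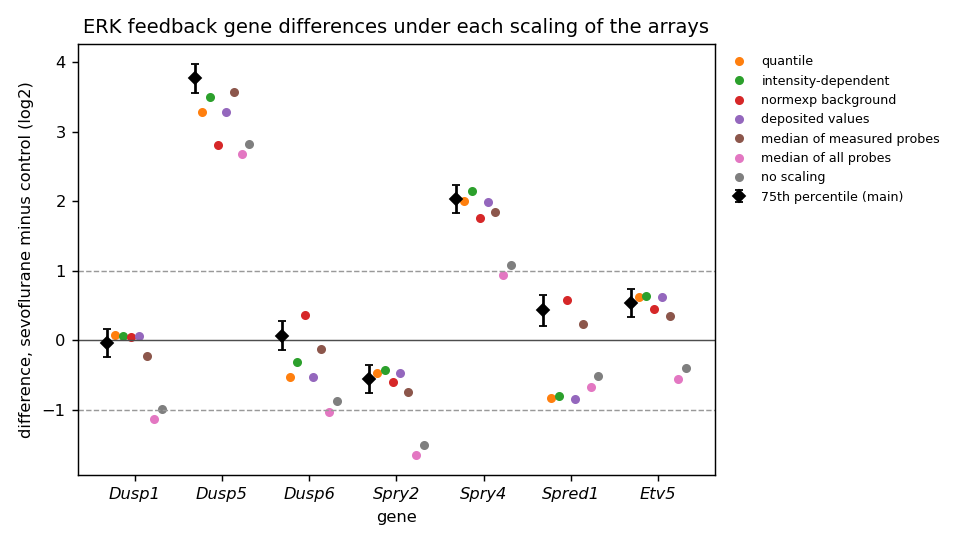
Difference of each ERK feedback gene (sevoflurane minus control, log2) under the scaling used (black diamonds, bars are the technical error of the spots) and under 7 other treatments of the arrays (coloured points); dashed lines mark 2-fold. Dusp5 stays above 2-fold throughout and Spry4 in all but 1 treatment, while Dusp1, Dusp6, Spred1 and Etv5 lie on both sides of 0.

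The position of the members among other genes depended on level. The median difference of measured genes was 1.69 in the dimmest of the 10 level groups, -0.13 in group 8, which holds Dusp1 and Spry2, and 0.14 in the brightest. Against the median of its own level group, Dusp5 differed by 3.32, Spry4 by 2.07, Etv5 by 0.68, Dusp1 by 0.09, Dusp6 by -0.39, Spry2 by -0.42 and Spred1 by -0.87. In the level group of Dusp5 and Dusp6, 31.5% of genes were at least 2-fold higher, and in that of Spry4 16.6%.

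**Figure D3:**
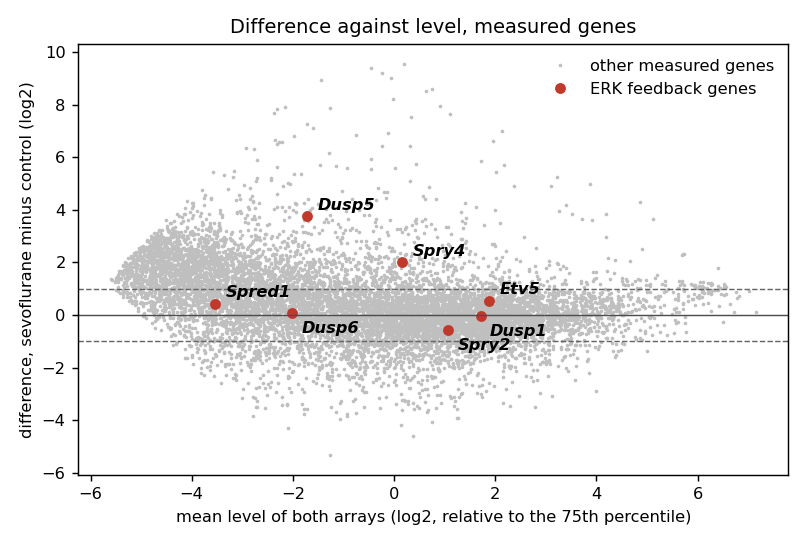
Difference (sevoflurane minus control, log2) against the mean level of both arrays (log2, relative to the 75th percentile) for 10028 measured genes (grey) and the 7 ERK feedback genes (red, labelled); dashed lines mark 2-fold. Dusp5 and Spry4 lie above the bulk of genes of their level, and the other 5 lie within it.

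Other genes of the pathway were taken from 8 lists, described by counts and medians, beside 28.2% higher and 11.2% lower over all measured genes. With the intensity-dependent correction these shares were 14% and 17.4%. Of 7 measured other MAP kinase phosphatases, 3 were at least 2-fold higher and 2 lower, around a median of 0.61 (1 and 2 around -0.14 with the intensity-dependent correction). Dusp9, which like Dusp6 prefers ERK, differed by 3.77 from a control signal of only 9.90 (1.94 after the intensity-dependent correction). Dusp8, which acts on JNK and p38, differed by -2.34 (signals 709 and 6927), and Dusp26, a phosphatase abundant in nervous tissue, by -1.38. Dusp14 was at 1.33 and Dusp2, which completes the count and was named after its value was seen, at 1.02; both were negative after the correction, at -0.25 and -0.08. Of 4 measured other feedback inhibitors 0 were past 2-fold in either direction (1 higher and 1 lower with the correction), with the EGF receptor inhibitor gene Errfi1 at 0.93 (1.04 after the correction), the Ras GTPase activators Nf1 and Rasa1 at 0.69 and -0.57 and the RAF inhibitor gene Pebp1 at 0.53. Nf1 was at -1.74 after the correction. Of 6 measured genes in the list of ETS factors and Srf, 2 were higher and 1 lower. Elk3 was at 1.99, Ets1 at 1.06 (0.88 after normexp) and Ets2 at 0.50. Etv1, the third gene of the PEA3 group, was at -1.41 (-0.91 after normexp), with its 2 probes at -1.47 and -1.41, whereas Etv5 of the same group was at 0.54.

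Of 16 measured genes of the ERK cascade itself, 1 was higher and 2 lower, around a median of -0.10. All measured genes had 28.2% higher and 11.2% lower around 0.27. The intensity-dependent correction gave 1 and 3 around -0.64 (all genes 14% and 17.4% around -0.06). Quantile normalization gave 1 and 4 around -0.77 (all genes 13.6% and 19.6% around -0.10). With the median over all probes subtracted it was 0 and 9 around -1.20 (all genes 10.5% and 43.5% around -0.83). The adaptor gene Grb2 differed by -1.56 (signals 1483 and 8432), Sos2, which loads Ras with GTP, by -1.48, and the adaptor gene Shc1 by 1.37. Araf was at -0.98, but its other probe was at 0.50. Of 18 measured early and delayed early genes that respond to ERK, 11 were higher and 1 lower, around a median of 1.47. Over all measured genes, 28.2% were higher and 11.2% lower. The intensity-dependent correction left 9 higher, 1 lower and the median at 1.04, beside 14% higher and 17.4% lower of all measured genes. The AP-1 gene Fosl1 was at 6.36 and Egr3 at 3.83, from control signals of 9.99 and 9.41, Ier3 at 3.09 from a control signal of 516, and Egr1 at 2.97 from a control signal of 13.6. After the correction these were at 5.55, 1.98, 3.21 and 1.20. The gene that was lower, the ephrin receptor gene Epha4, named after its value was seen, was at -2.06. The range of this list, -2.06 to 6.36, is so wide that all 7 ERK feedback genes lay within it. Lying within it therefore sets neither Dusp5 (3.77) nor Spry4 (2.04) apart. Dusp1, a stress-induced early gene itself, was at -0.04.

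Of 13 measured receptor tyrosine kinase genes, 4 were higher and 4 lower (2 and 4 after the correction), and their median was -0.06. For these and the growth factors below, the shares over all measured genes were 28.2% higher and 11.2% lower. After the correction they were 14% and 17.4%. Ntrk3, a neurotrophin receptor gene, was at -3.46, Fgfr4 at 2.92 (1.84 after the correction), Met at 1.88 (0.20) and Pdgfrb at 1.41 (1.55). Of 12 measured growth factor genes, 8 were higher and 1 lower, around a median of 1.44, but 3 and 2 with a median of 0.13 after the correction. Btc, which encodes the EGF receptor ligand betacellulin, was at 4.41 (signals 2938 and 266, and 4.55 after the correction). Fgf1 was at 2.57 (2.27). Fgf10 and Hgf were at 2.86 and 2.43 from control signals of 11.2 and 11.4, and at 0.82 and 0.26 after the correction. Fgf9, named after its value was seen, was at -1.16 (-2.78 after the correction, 0.11 after normexp).

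**Figure D4:**
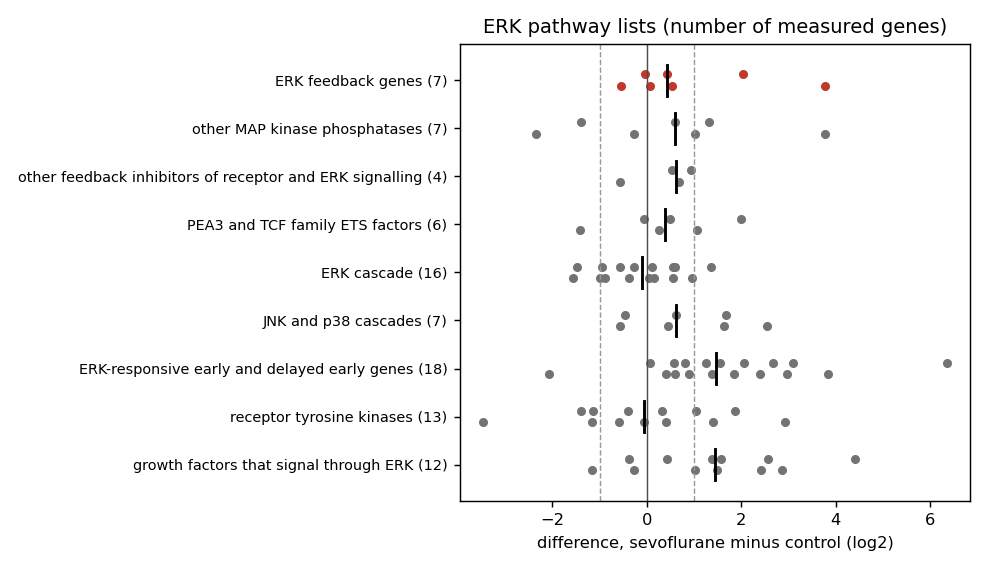
Differences (sevoflurane minus control, log2) of measured genes in the ERK feedback set (red) and in 8 lists of the pathway (grey), 1 point per gene, with the median as a black bar, dashed lines at 2-fold and the number of genes in brackets. Early and delayed early genes and growth factors have the highest medians, 1.47 and 1.44, against 0.43 for the ERK feedback genes. After the intensity-dependent correction, which is not drawn, these medians were 1.04, 0.13 and 0.06.

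The labelled cell type was checked on its markers: 12 of 13 neural stem and progenitor markers had a probe, all 12 counted as measured, their signals were between 50.5 and 26814, and 3 were at least 2-fold higher and 2 lower. Over all measured genes, 28.2% were at least 2-fold higher and 11.2% lower. Counts here are after scaling, whereas the sums in brackets are of signals before scaling. Before scaling, the 75th percentile was 0.95 log2 units higher on the control array. Of markers of other cells, 5 of 9 measured neuronal genes were at least 2-fold lower and 0 higher (summed signal 18608 under sevoflurane and 83754 in the control). For microglial genes 7 of 9 were lower and 0 higher (1291 and 12299), and 6 of 6 red blood cell genes were higher (51166 and 17737). Of mesenchymal and pericyte genes, 4 of 8 were higher (24682 and 35978), and of endothelial genes 3 of 3 (157 and 73.5). The endothelial signals were dim, at most 73.9, and in the dimmest level group 75.6% of genes were at least 2-fold higher. Of astrocyte genes 2 of 7 were higher and 1 lower (4237 and 8389), and of oligodendrocyte lineage genes 2 of 7 were higher and 1 lower (1551 and 2572). Of these lists, Syt1, Itgam, Pecam1, Cdh5 and Mag were not well above background on both arrays. The part of such cells in the values of Dusp5, Spry4 and the other ERK feedback genes was not tested. In RNA from whole cultures, fewer cells of a type and less RNA per cell cannot be told apart.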

How the data were processed

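Total RNA was labelled with Cy3 through random primers, per the labels' protocols. The authors deposited scanner files that hold spot intensity on a linear scale; per the file headers, Agilent's Feature Extraction software (version 11.0.1.1) subtracted the background within each array. The authors also deposited a table read here as log2 values: over 24431 probes its columns correlated at 0.991 (sevoflurane) and 0.993 (control) with log2 scanner signals, its medians were 5.61 and 5.60, and the correlation between its differences and the quantile-normalized ones was 0.968. Its program and centring remain unknown.

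Control spots and spots with outlier flags (521 on the sevoflurane array, 580 on the control array, of 42136) were left out. Processed signals were taken to log2, spots of a probe averaged, and the 75th percentile over probes subtracted from each array. A probe was measured when over 50% of its usable spots were well above background on both arrays; 0 spots were saturated. RefSeq accessions without versions were named through a gene table on GRCr8, which named 14274 of 15323 RefSeq mRNA probes. Of several measured probes of a gene, that with the highest mean level was used. Technical errors combine Feature Extraction's error estimates of both spots; spots of a probe repeated at least 3 times had a median SD of 0.09 and 0.07 log2 units (4234 probes), and probes of a gene a median SD of 0.11 (237 genes).

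Quantile normalization, median scaling, loess between arrays (the intensity-dependent correction), normexp (offset 50, on the median signal and median background of each spot) and the deposited table were the other ways of processing (limma 3.58.1, R 4.3.3, Python 3.11.15). The calculation was tested on simulated arrays. With 1 array per group, the number of arrays limits the precision. Named genes were all listed members and, of each pathway list, up to 4 measured genes of highest absolute difference. No gene was named for likeness of pattern, since each gene has 1 difference. The members and lists were chosen with earlier results of these data known.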

Additional observations from a re-analysis of the deposited data

How the results depend on the processing

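The counts of ERK feedback genes, 2 higher and 0 lower by at least 2-fold, were the same with normexp, the intensity-dependent correction and quantile normalization, with the deposited values, with flagged spots kept, with the median of spots, with all usable probes, with the mean over probes, and with 1.5-fold or 3-fold as the size. Each gene had 1 probe with 1 unflagged spot. The choices on spots could therefore act only through the 75th percentile, and those on probes could not act at all. Their equal counts are no check of the result. Subtracting the median over all probes gave 1 higher (Dusp5) and 3 lower (Dusp1, Dusp6 and Spry2); many of those probes are not above background, and the median of all measured genes then lay at -0.83. With 2 treatments chosen after seeing the data, the median over measured probes gave 2 and 0, and no scaling gave 2 and 1 (Spry2). The members' median of 0.43 was 0.075 with quantile normalization, 0.062 with the intensity-dependent correction, 0.070 with the deposited values, -0.67 after median scaling and -0.52 without scaling, beside medians of all genes of -0.10, -0.06, -0.10, -0.83 and -0.68 in that order. Of the 83 measured pathway genes, 32 were higher and 11 lower; quantile normalization left 22 higher and 18 lower, and there were 13 and 29 after median scaling, 21 and 14 after the intensity-dependent correction, and 26 and 7 after normexp. Genes at least 2-fold higher and lower over all measured genes were 2823 and 1124 (71.5% of these higher), and 1368 and 1967 after quantile normalization (41.0%), 1404 and 1749 after the correction (44.5%), 2319 and 847 after normexp (73.2%) and 1050 and 4364 after median scaling (19.4%). No paired analysis was possible because each group has 1 array. Leaving out a replicate was not possible for the same reason. The deposited table was not applied to the pathway totals, as planned.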

Other observations

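Beyond the ERK feedback genes, the array measured 18 genes named Dusp, of which 7 were at least 2-fold higher and 2 lower (28.2% and 11.2% of all measured genes were), around a median of 0.72. The intensity-dependent correction left 3 higher and 3 lower (14% and 17.4% of all measured genes), around a median of -0.11. This family was looked at after its values were seen, and it includes Dusp1, Dusp5 and Dusp6. Dusp5 and Dusp9 were level at the top, both at 3.77, and Dusp8 had the lowest difference (-2.34). Dusp29 was at 3.42 from a control signal of 19.1, and at 2.25 after the intensity-dependent correction. Dusp13a and Dusp13b were at 2.17 and 1.86 from control signals of 13.8 and 15.9, but at 0.09 and -0.17 after the correction. Dusp11, Dusp19, Dusp12, Dusp18 and Dusp22 stayed within 2-fold, at 0.84, 0.94, 0.01, 0.26 and -0.40, although Dusp18 was at -1.03 after the correction. Dusp10, which acts on JNK and p38, was at 0.61 with signals of 8040.3 and 10181.

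The JNK and p38 cascades, which Dusp1 and Dusp8 act on, had 3 of 7 measured genes at least 2-fold higher and 0 lower, around a median of 0.62. Of all measured genes, 28.2% were higher and 11.2% lower. The intensity-dependent correction left 2 higher, 0 lower and the median at -0.45, beside 14% higher and 17.4% lower of all measured genes. Mapk10, the gene of the neuronal kinase JNK3, was at 2.54 (signals 313 and 104), and Map2k4, which activates JNK, at 1.65 (signals 4453 and 2741). These were at 2.35 and 1.66 after the correction. Map2k7 was at 1.68 from signals of 17.3 and 10.4, and at -0.73 after the correction. Map2k3, which activates p38, was at 0.62.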
